A study of Homo sapiens with 12 samples.

Results

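L540 cells that received the anti-CD30 antibody T427 were compared with untreated L540 cells. The arrays were taken by their titles: 2 of T427 and 2 of untreated cells, 4 of the 12 arrays in the series. A probe entered when it had a gene name and a detection p-value below 0.01 on both arrays of at least 1 of these groups. The detection p-value gives the share of the array's negative control probes that are at least as bright. This left 9759 of 28082 annotated probes, which stood for 7731 of 18846 genes. Of these genes, 7377 were detected on both arrays of both groups, 193 passed only through T427 and 161 only through untreated cells. Probes at the edge of the rule were dim: the 223 probes just inside it had a median level of 6.99 on the log2 scale, and the 82 just outside it had one of 6.89. The difference of T427 from untreated cells had a median of -0.07 on the log2 scale just inside the rule and of 0.04 just outside it.

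CD30, encoded by TNFRSF8, is a receptor of the TNF receptor superfamily that marks the tumour cells of classical Hodgkin lymphoma. When its ligand or an agonistic antibody clusters it, its tail recruits TRAF adaptor proteins, and kinases downstream of them activate the NF-kB transcription factors. The canonical branch frees RELA and NFKB1 dimers from IkB proteins. The non-canonical branch processes the NFKB2 precursor and releases RELB dimers. Well known NF-kB targets include inhibitors that feed back on the pathway, TRAF1, TNF family ligands and receptors, and survival genes such as CFLAR.

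L540 is an established CD30+ Hodgkin lymphoma cell line. Cells stood for 16 h in 5 ml of IMDM medium with 10% FBS, and treated flasks then received 100 µl of PBS with the protein, to a final 10 µg/ml. T427, T104 and T408 are monoclonal antibodies against CD30, PW30 is a further one, and CD30L-Fc is a fusion protein of the CD30 ligand, CD153. The design text gives 8 h of treatment and calls the 24 h of the sample titles wrong. The growth protocol still gives 24 h, so the records differ on the time. The design text also names T428 where the titles have T408, so the identity of that antibody rests on the titles. The untreated flasks received none of these proteins, and whether they received PBS is not stated; no arm with an antibody of another specificity was analysed here. Each group holds biological duplicates of 1 cell line in culture, so no patient tissue or second line was measured. Total RNA was hybridised as biotin-labelled cRNA to the Illumina HumanHT-12 v3 BeadChip.

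The 12 arrays had median raw signals from 129.9 to 151.7 and from 10910 to 12005 detected probes; the untreated arrays had the 148.6 and 151.7 of that range and the T427 arrays 136.3 and 130.6. After normalisation the duplicates correlated with r = 0.990 across probes in untreated cells and 0.993 in T427 cells. Over the genes tested, the duplicates differed by a median of 0.17 on the log2 scale in untreated cells and 0.14 in T427 cells. With 2 arrays a group, their number limits the precision. Of 10 genes typical of Hodgkin cell lines, 8 were detected in each group: CCL17 was not detected in either, BCL2A1 not on both untreated arrays and TNFRSF8 not on both T427 arrays. Their summed signal was 35154 to 35617 in untreated and 39749 to 40665 in T427 cells. This sum rests mostly on bright genes that were not called. BATF3, for example, stood at 14.01 and 14.32 untreated and at 14.28 and 14.33 with T427. TRAF1 and LTA, described below, are among the 10 genes, at lower levels. CD3D, CD3E and CD3G of T cells, CD79A and PAX5 of B cells, CD14 of monocytes and all 11 fibroblast and epithelial markers were not detected. T cell markers gave 5 of 18 (CD247, CD2, CD4, GZMB and NKG7). B cell markers gave 2 of 9 (BLK and FCER2) and monocyte markers 3 of 13 (CD68, CSF1R and ITGAX). No gene of these 4 lists was called, and the summed T cell signal was 25576 to 27732 in untreated and 27047 to 27212 in T427 cells.

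T427 raised a small set of genes, and the NF-kB subunit genes RELB and NFKB2 were among its largest rises. TRAF1, RELB, IL4I1, TNFRSF9 and NFKB2 rose the most, between 2.45-fold and 3.27-fold. In all 28 of 7731 genes (0.362%) passed limma's moderated test with a Benjamini-Hochberg adjusted p below 0.05, which is what "called" means here. Of these, 26 rose (0.336%) and 2, CEL and TMEM214, fell (0.0259%). Of the 28, 25 were detected on both arrays of both groups. SDC4 and CBLN3 had entered only through T427 and CEL only through untreated cells, so their direction was set by the filter and they are no support for the count. The change reached 2-fold for 10 genes (0.129%), all of them rises. The 26 rises lay between 0.64 and 1.71 on the log2 scale. Every one of the 28 called genes had T427 arrays that did not overlap the untreated ones, as 34.4% of all genes tested did. The median change of all genes was -0.01, and the median 95% interval reached 0.31 to each side of a gene's change. At an unadjusted p below 0.05 there were 611 genes (7.9%), 299 higher and 312 lower, where 387 would be expected by chance.

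**Figure D1:**
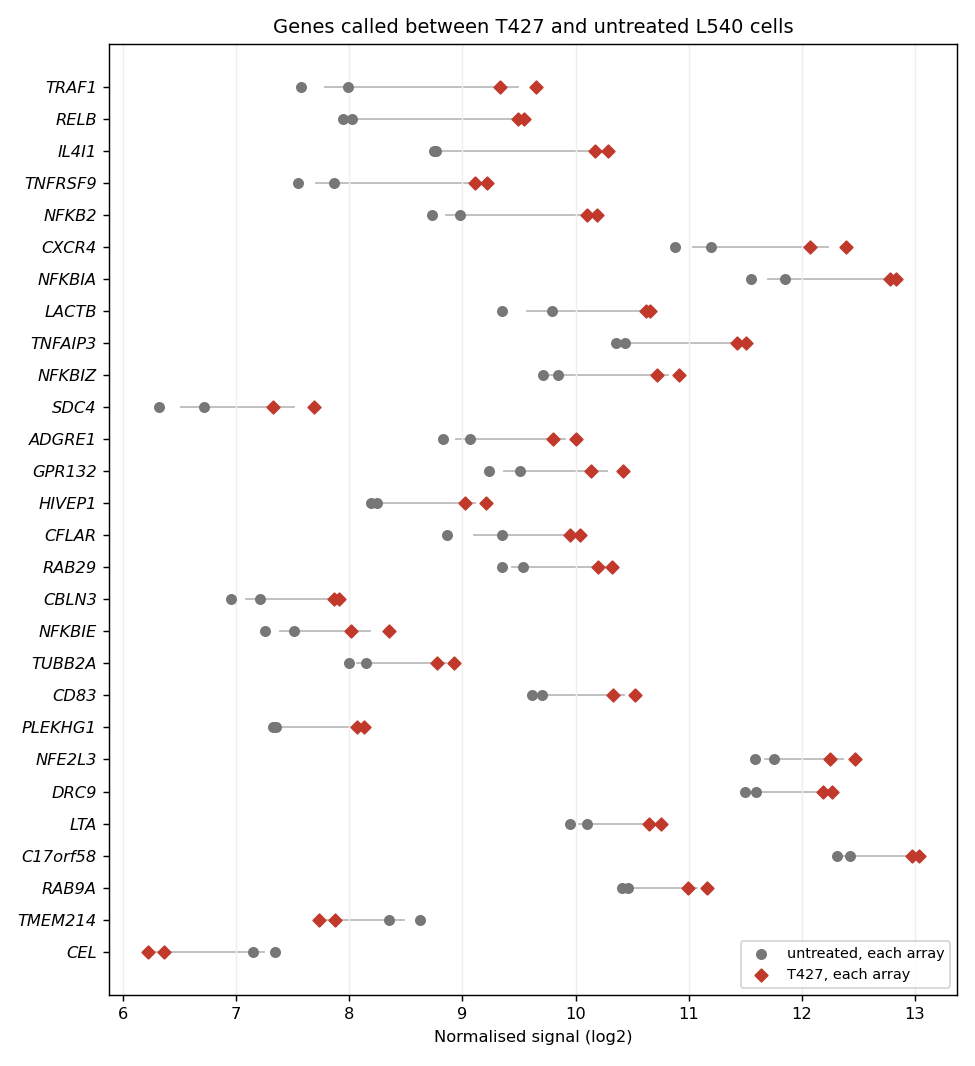
Normalised signal (log2, horizontal axis) of the 28 called genes on each untreated array (grey circles) and each T427 array (red diamonds), with a grey line between the group means. In 26 genes, from TRAF1 (largest rise, 1.71) to RAB9A (smallest, 0.64), both T427 arrays lie to the right of both untreated arrays, and in TMEM214 and CEL both lie to the left.

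The size of this set depended on single arrays. Leaving out T427 replicate 2 left 8 called genes, leaving out T427 replicate 1 left 16 and leaving out untreated replicate 2 left 18. Without untreated replicate 1 there were again 28, of which 13 were shared with the full set. The lone array of a group was then assumed to vary like the other groups. TRAF1, RELB, IL4I1, TNFRSF9, NFKB2, NFKBIA and NFKBIZ were called under all 4 of these omissions. PLEKHG1, NFE2L3, DRC9, LTA, C17orf58, RAB9A and CEL were called under none of the 4. A fit on the 4 arrays of both groups alone called 6 genes, all among the 28.

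**Figure D2:**
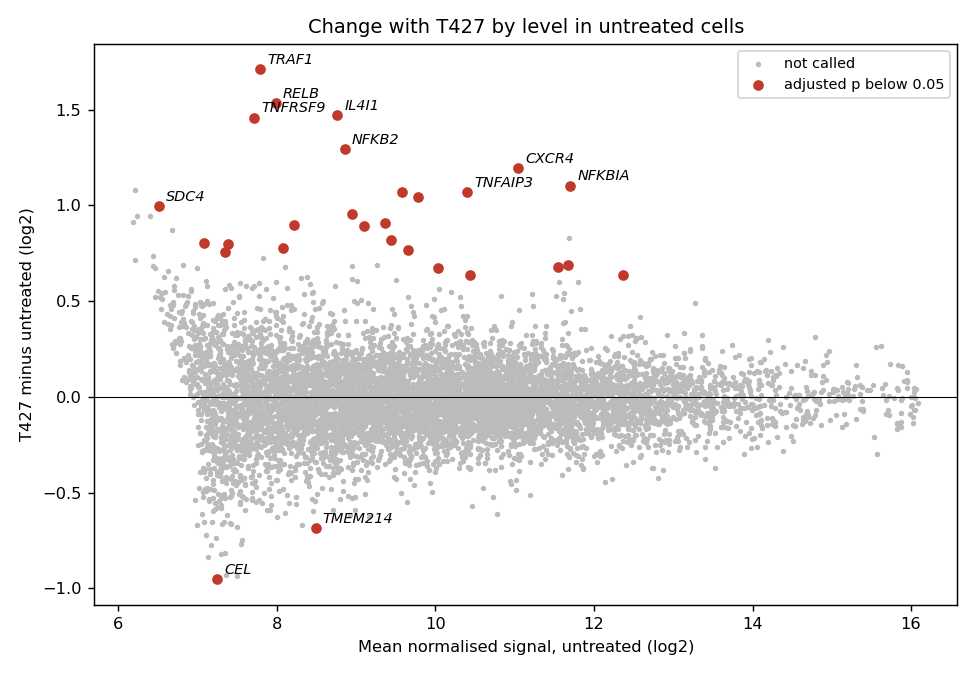
Change with T427 (T427 minus untreated, log2, vertical axis) against the mean normalised signal of the untreated arrays (log2, horizontal axis) for the 7731 genes tested; red points passed an adjusted p of 0.05. Called genes lie from dim ones such as SDC4, with untreated arrays at 6.71 and 6.32, to bright ones such as C17orf58, with untreated arrays at 12.42 and 12.31.

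TRAF1, an adaptor that binds the tails of TNF receptor family members together with TRAF2, showed the largest rise. It stood at 7.57 and 7.99 on the untreated arrays and at 9.34 and 9.65 on the T427 arrays. The groups were far apart compared with the duplicates, and the change was 1.71 ± 0.18 (SE, n = 2 a group, 3.27-fold, limma adjusted p = 0.000545). It was the 1 called gene among the 18 tested members of a list of CD30, TRAF adaptors and upstream kinases, whose median change was 0.05 against -0.01 for all genes; 0.336% of all genes rose. The brightest probe of the receptor gene itself read dim. TNFRSF8 stood at 7.60 and 7.33 on the untreated arrays and at 7.65 and 6.75 on the T427 arrays, with 1 of the latter detected, and its change of -0.26 ± 0.30 did not pass (adjusted p = 0.910). In bulk RNA, fewer cells that express a gene and less of its RNA per cell cannot be told apart.

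Apart from TRAF1, no tested gene of that list was called. MAP3K8, a kinase upstream of both NF-kB and MAP kinases, came closest among the higher ones, at 7.37 and 7.48 untreated and 7.88 and 8.10 with T427 (0.57 ± 0.13, adjusted p = 0.145). TAB1, which activates the kinase TAK1, was the lowest of the list, at 7.81 and 8.05 untreated and 7.58 and 7.15 with T427 (-0.56 ± 0.15, adjusted p = 0.264). Both genes had groups that did not overlap, as 34.4% of all genes tested did. MAP3K14, the NIK kinase that drives the non-canonical branch, gave 0.05 ± 0.15. CHUK and IKBKB, the catalytic IkB kinases, gave 0.05 ± 0.12 and -0.12 ± 0.14. TRAF3, which keeps NIK levels low, gave 0.19 ± 0.18 and BIRC2, the ubiquitin ligase cIAP1, 0.27 ± 0.15.

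The promoter of TRAF1 is shown because this gene rose the most. The 250 bases before each transcription start come from RefSeq on the build GRCh38.p14, 5′ to 3′ on the gene's strand. In this and the sequences below, capitals mark any match of the NF-kB consensus, a motif of 10 bases, on either strand. This is 1 of 3 TRAF1 windows, and none of the 3 held a match.
TRAF1, chr9:120929172-120929421, minus strand: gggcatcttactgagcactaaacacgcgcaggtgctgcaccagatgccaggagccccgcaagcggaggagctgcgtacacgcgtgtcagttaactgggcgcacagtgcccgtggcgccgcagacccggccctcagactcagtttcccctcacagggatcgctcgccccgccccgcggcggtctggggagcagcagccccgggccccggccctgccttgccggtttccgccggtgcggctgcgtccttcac

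Of the NF-kB subunits, the partners of the non-canonical dimer rose and those of the canonical dimer did not pass. RELB stood at 8.02 and 7.94 untreated and at 9.54 and 9.49 with T427. Its duplicates lay within 0.1 of each other, and the change was 1.53 ± 0.12 (2.89-fold, adjusted p = 4.77e-05), the smallest p of the comparison. NFKB2 stood at 8.73 and 8.97 untreated and at 10.19 and 10.10 with T427 (1.29 ± 0.13, 2.45-fold, adjusted p = 0.000484). A second NFKB2 probe read 8.50 and 8.70 untreated and 9.18 and 9.67 with T427, higher by 0.83 ± 0.18, which did not pass over all probes (adjusted p = 0.128). NFKB1, the p105/p50 subunit, was bright at 12.75 and 12.67 untreated and 13.01 and 12.81 with T427 (0.20 ± 0.13, adjusted p = 0.795). RELA, the p65 subunit, changed by 0.00 ± 0.15, with an interval from -0.33 to 0.33. With 2 of 4 tested members called higher, against 0.336% of all genes, the list had a median of 0.75. The difference between the rises of the subunits was not tested.

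NFKB2 promoters are shown because this subunit gene is among the largest rises and holds matches in its windows, 2 of which are given. Counting each strand on its own, there were 4 matches in the first and 3 in the second. Matches that overlap run together in 1 stretch of capitals.
NFKB2, chr10:102394328-102394577, plus strand: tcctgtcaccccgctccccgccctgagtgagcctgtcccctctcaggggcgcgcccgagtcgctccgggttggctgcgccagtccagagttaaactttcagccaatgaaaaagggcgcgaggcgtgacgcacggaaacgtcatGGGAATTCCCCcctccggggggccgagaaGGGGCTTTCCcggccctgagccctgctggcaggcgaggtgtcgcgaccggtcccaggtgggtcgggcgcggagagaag
NFKB2, chr10:102395455-102395704, plus strand: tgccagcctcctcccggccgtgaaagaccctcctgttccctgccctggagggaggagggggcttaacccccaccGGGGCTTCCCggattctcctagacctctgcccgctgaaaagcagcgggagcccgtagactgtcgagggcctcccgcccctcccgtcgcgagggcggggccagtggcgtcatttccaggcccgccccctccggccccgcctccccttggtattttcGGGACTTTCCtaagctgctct

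Inhibitors and feedback regulators of NF-kB gave 4 called genes of 13 tested, all higher, where 0.336% of all genes tested rose. The list's median was 0.34 against -0.01 for all genes. NFKBIA, the IkB-alpha protein that holds RELA dimers in the cytoplasm, stood at 11.55 and 11.85 untreated and at 12.78 and 12.83 with T427 (1.10 ± 0.13, 2.15-fold, adjusted p = 0.00118). TNFAIP3, the A20 enzyme that edits ubiquitin chains on upstream signalling proteins, stood at 10.36 and 10.44 untreated and at 11.43 and 11.51 with T427 (1.07 ± 0.14, 2.10-fold, adjusted p = 0.00308). Both were already bright in untreated cells, and their T427 arrays lay about 1 log2 unit above. NFKBIZ, a nuclear IkB protein, stood at 9.84 and 9.71 untreated and at 10.91 and 10.72 with T427 (1.04 ± 0.13, 2.06-fold, adjusted p = 0.00183). NFKBIE, the IkB-epsilon protein, was the dimmest of the 4, at 7.25 and 7.51 untreated and 8.02 and 8.35 with T427 (0.80 ± 0.14, 1.74-fold, adjusted p = 0.0254). Without T427 replicate 2 neither TNFAIP3 nor NFKBIE was called, and NFKBIE was not called without untreated replicate 1 either.

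The other 9 inhibitors did not pass. CYLD, a deubiquitinase that removes chains from NF-kB signalling proteins, had the largest of these differences, at 8.36 and 8.38 untreated and 9.09 and 8.91 with T427 (0.63 ± 0.20, adjusted p = 0.442). ZC3H12A, an RNase that degrades inflammatory transcripts, was detected on 1 untreated array and gave 0.35 ± 0.15 and TNIP1, a partner of A20, 0.29 ± 0.13. BCL3, a nuclear IkB protein, gave 0.28 ± 0.12 and NFKBIB, the IkB-beta protein, 0.13 ± 0.16. N4BP1 was the 1 member below 0, at -0.13 ± 0.15.

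**Figure D3:**
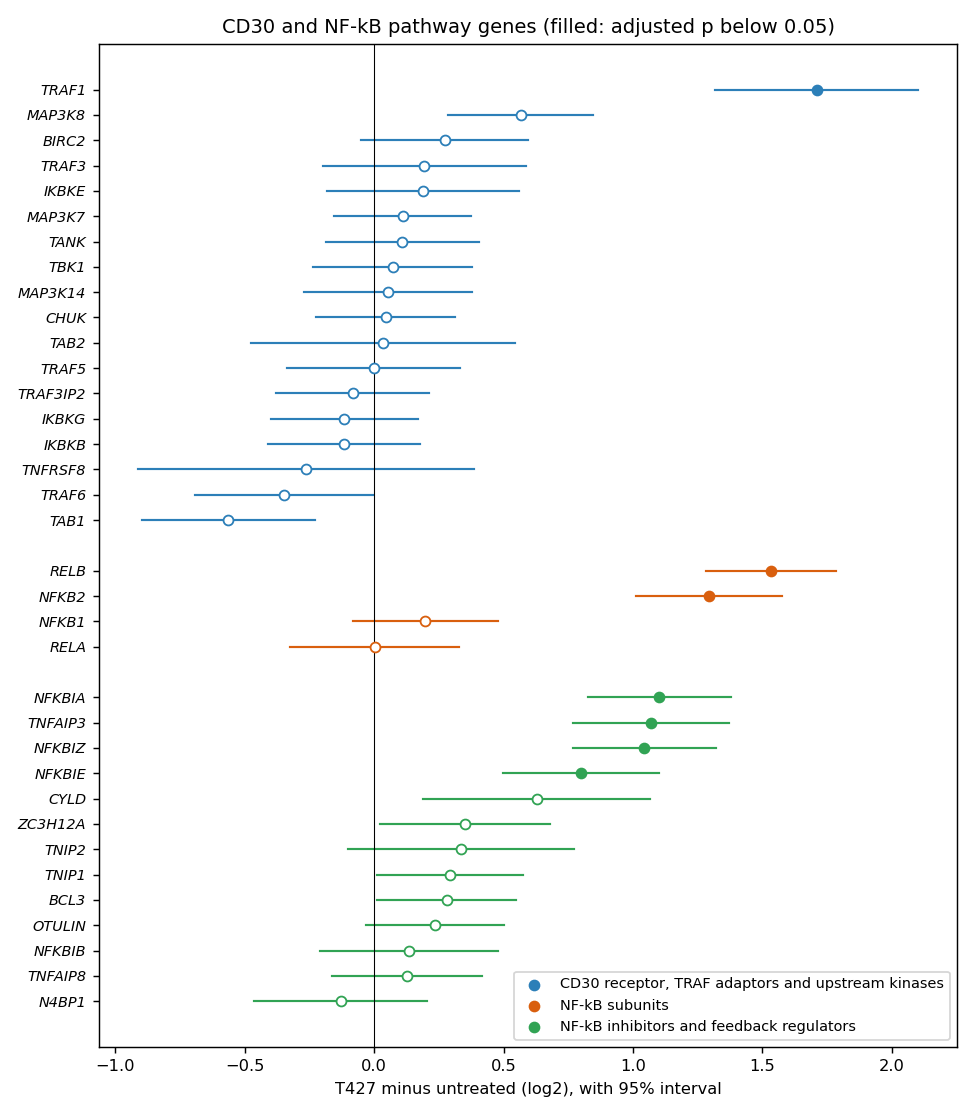
Change with T427 (T427 minus untreated, log2, horizontal axis) of every tested gene of 3 lists, with its 95% interval: CD30, TRAF adaptors and upstream kinases (blue), NF-kB subunits (orange) and NF-kB inhibitors (green); filled points passed an adjusted p of 0.05. TRAF1, RELB, NFKB2, NFKBIA, TNFAIP3, NFKBIZ and NFKBIE are filled, and RELA sits at 0.00.

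TNFRSF9, the costimulatory receptor 4-1BB, was the 1 called gene of 8 other TNF receptor family members; as for each list below, the share of all genes that rose was 0.336%. It stood at 7.87 and 7.55 untreated and at 9.12 and 9.21 with T427. The rise was 1.46 ± 0.15 (2.75-fold, adjusted p = 0.000487). The list's median was -0.08. FAS, a death receptor, changed by 0.00 ± 0.20, and TNFRSF10A and TNFRSF10B, the TRAIL receptors, by 0.27 ± 0.21 and 0.14 ± 0.14. TNFRSF21 was detected on both untreated arrays and on neither T427 array, at 7.55 and 7.07 against 6.78 and 6.51, at least 1.35-fold lower with T427 without passing (adjusted p = 0.335). The window before the TNFRSF9 start is shown as that of the receptor that rose, and held 2 overlapping matches, 1 on each strand.
TNFRSF9, chr1:7940840-7941089, minus strand: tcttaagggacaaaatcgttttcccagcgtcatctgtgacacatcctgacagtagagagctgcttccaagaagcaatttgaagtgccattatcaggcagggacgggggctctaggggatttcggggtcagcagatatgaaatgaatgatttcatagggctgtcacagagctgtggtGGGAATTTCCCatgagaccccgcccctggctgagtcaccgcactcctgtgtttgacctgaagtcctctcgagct

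Among 8 TNF family ligands, LTA was called. LTA encodes lymphotoxin alpha, which signals through TNF receptors. It stood at 9.95 and 10.10 untreated and at 10.64 and 10.76 with T427 (0.67 ± 0.12, 1.59-fold, adjusted p = 0.0345), and lost its call when any 1 of the 4 arrays was left out. TNF stood at 8.36 and 8.77 untreated and at 9.13 and 8.97 with T427 (0.49 ± 0.19, adjusted p = 0.541). TNFSF10, the TRAIL ligand, gave 0.38 ± 0.16. CD70, the ligand of CD27, stood at 7.02 and 7.47 untreated and at 6.95 and 7.54 with T427, a change of 0.00 ± 0.20 with an interval from -0.43 to 0.44. The median of the list was 0.15.

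Surface, chemokine and survival genes contributed single called members. CXCR4, the receptor of CXCL12 that guides lymphocyte homing, was the 1 called of 4 tested chemokines and chemokine receptors. It stood at 11.20 and 10.88 untreated and at 12.07 and 12.39 with T427 (1.19 ± 0.16, 2.29-fold, adjusted p = 0.00479). A second CXCR4 probe rose as well, from 9.45 and 9.31 to 10.72 and 10.49 (1.23 ± 0.13, limma adjusted p over all probes = 0.00117). The CXCR4 call was lost without untreated replicate 2 and without T427 replicate 2. CD83, an activation marker of antigen-presenting cells, was the 1 called of 13 costimulation, adhesion and activation molecules, at 9.61 and 9.70 untreated and 10.33 and 10.52 with T427 (0.77 ± 0.12, 1.70-fold, adjusted p = 0.0109). CFLAR, the c-FLIP protein that blocks caspase-8 at death receptors, was the 1 called of 9 anti-apoptotic genes, at 8.86 and 9.35 untreated and 10.04 and 9.95 with T427 (0.89 ± 0.16, 1.86-fold, adjusted p = 0.0280). A second CD83 probe was higher by 0.78 ± 0.17, which did not pass over all probes (limma adjusted p = 0.120). CD83 kept its call under 2 of the 4 single-array omissions and CFLAR under 1. Other survival genes of the list lay near 0, with BCL2L1 at 0.20 ± 0.13, BCL2 at 0.12 ± 0.12 and MCL1 at 0.00 ± 0.16.

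IL4I1 was the 1 called of 7 tested members of the cytokine list, although it is a secreted enzyme that oxidises amino acids and not a cytokine. It stood at 8.76 and 8.75 untreated and at 10.17 and 10.28 with T427. The change of 1.47 ± 0.14 (2.77-fold, adjusted p = 0.000351) far exceeded the gap between duplicates. The cytokines of the list did not pass: EBI3, a subunit of IL-27 and IL-35, gave 0.26 ± 0.14, IL32 0.11 ± 0.12, IL10 -0.01 ± 0.15 and LIF, detected on 1 of the T427 arrays, -0.54 ± 0.20. The IL4I1 promoter, shown as that of 1 of the 4 largest rises with a window in the table, held no match.
IL4I1, chr19:49929505-49929754, minus strand: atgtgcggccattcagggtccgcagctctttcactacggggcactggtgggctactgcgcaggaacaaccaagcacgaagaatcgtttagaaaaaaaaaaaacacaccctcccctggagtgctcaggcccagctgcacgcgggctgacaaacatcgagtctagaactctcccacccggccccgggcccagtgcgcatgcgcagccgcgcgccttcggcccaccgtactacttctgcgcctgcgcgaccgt

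Of the 28 called genes, 13 were on at least 1 of 28 lists and 15 were on none. HIVEP1, a zinc finger protein that binds NF-kB-like enhancer sites, was the firmest of the 15 by its p-value. It stood at 8.19 and 8.25 untreated and at 9.02 and 9.21 with T427 (0.90 ± 0.12, 1.86-fold, adjusted p = 0.00308), and was not called without T427 replicate 2. LACTB, a mitochondrial protein related to bacterial beta-lactamases, stood at 9.35 and 9.79 untreated and at 10.66 and 10.63 with T427 (1.07 ± 0.17, 2.10-fold, adjusted p = 0.0120). For LACTB the gap between the untreated duplicates was wide, and the call was lost without untreated replicate 1 and without either T427 array. A second LACTB probe was higher by 0.74 ± 0.24 and did not pass over all probes (limma adjusted p = 0.457).

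ADGRE1, GPR132 and SDC4 were on no list either. ADGRE1, an adhesion G protein-coupled receptor that is the human counterpart of mouse F4/80, stood at 8.83 and 9.07 untreated and at 9.80 and 10.00 with T427 (0.96 ± 0.16, 1.94-fold, adjusted p = 0.0167). GPR132, a G protein-coupled receptor that responds to lipids, stood at 9.23 and 9.51 untreated and at 10.42 and 10.13 with T427 (0.91 ± 0.15, 1.88-fold, adjusted p = 0.0154). Both lost their call without untreated replicate 1 and without either T427 array. SDC4, a heparan sulfate proteoglycan of the cell surface, was detected on neither untreated array, at 6.71 and 6.32, and on both T427 arrays, at 7.69 and 7.33. It was at least 1.48-fold higher with T427, the bound that the dimmest detected probes of the untreated arrays set (fitted adjusted p = 0.0109). It had entered the test only through T427, where it is high; the call was lost without untreated replicate 2 and without T427 replicate 1.

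RAB29, RAB9A, TUBB2A and PLEKHG1, also on no list, had smaller changes. RAB29, a small GTPase of the trans-Golgi network and endosomes, stood at 9.35 and 9.54 untreated and at 10.32 and 10.20 with T427 (0.82 ± 0.13, adjusted p = 0.0167). RAB9A, a GTPase of transport from late endosomes to the Golgi, stood at 10.41 and 10.46 untreated and at 10.99 and 11.16 with T427 (0.64 ± 0.12, adjusted p = 0.0430). TUBB2A, a beta tubulin, stood at 8.00 and 8.15 untreated and at 8.93 and 8.77 with T427 (0.78 ± 0.12, adjusted p = 0.0108). Neither these genes nor PLEKHG1, which went from 7.35 and 7.33 to 8.07 and 8.13 (0.76 ± 0.12, adjusted p = 0.0154), reached a 2-fold change. RAB9A and PLEKHG1 were called under none of the 4 single-array omissions, RAB29 and TUBB2A under 1. Second probes of TUBB2A (0.51 ± 0.16, limma adjusted p = 0.440) and PLEKHG1 (0.77 ± 0.27, limma adjusted p = 0.487) were higher without passing over all probes.

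The remaining rises were close to the threshold. NFE2L3, a transcription factor of the NRF family, stood at 11.76 and 11.59 untreated and at 12.47 and 12.25 with T427 (0.69 ± 0.13, adjusted p = 0.0460), the last gene inside the threshold. DRC9, known from the dynein regulatory complex of cilia, went from 11.59 and 11.50 to 12.19 and 12.26 (0.68 ± 0.12, adjusted p = 0.0254). C17orf58 went from 12.42 and 12.31 to 12.97 and 13.03 (0.64 ± 0.12, adjusted p = 0.0449), and its 3 other probes were higher as well, 1 of them past the threshold over all probes. CBLN3, a member of the cerebellin family, was detected on 1 untreated and on both T427 arrays and went from 7.21 and 6.96 to 7.91 and 7.87 (0.80 ± 0.14, adjusted p = 0.0286); its call remained in 1 of the 4 single-array omissions. Just outside the threshold stood STX4, a syntaxin of exocytosis, at 0.61 ± 0.12 (adjusted p = 0.0658), RIPOR1 at 0.69 ± 0.14 (adjusted p = 0.0667) and DDIT4, an inhibitor of mTORC1, at 0.60 ± 0.12 (adjusted p = 0.0744).

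Falls were few. TMEM214, an endoplasmic reticulum membrane protein, stood at 8.35 and 8.62 untreated and at 7.73 and 7.87 with T427 (-0.68 ± 0.12, adjusted p = 0.0310). Its call held in 5 of 15 alternatives. Among others, it was lost with the authors' deposited table of processed values and without untreated replicate 2 or either T427 array. CEL, a bile salt-dependent lipase, stood at 7.15 and 7.34 untreated and at 6.22 and 6.36 with T427, where neither array detected it. It was at least 1.29-fold lower (fitted adjusted p = 0.0392), and no alternative that was run left it called. It had entered the test only through the untreated arrays, where it is high. DSCC1, a sister chromatid cohesion factor, and HDHD3, a hydrolase family member, followed without passing (both adjusted p = 0.0614). Neither was detected on a T427 array, so their differences are bounds, at least 1.19-fold and at least 1.15-fold lower. SGK1, a kinase of ion transport and cell survival, went from 8.29 and 8.35 to 7.66 and 7.65 (-0.67 ± 0.15, adjusted p = 0.114).

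The other lists held no called gene. Of 28 lists, 9 had a called member, 19 had none, and 343 of the 578 listed genes were tested. For the 16 lists without a call that had at least 5 tested genes, the median change ran from -0.07 to 0.09. The 26 tested genes of the G2/M and mitosis list lay between -0.26 and 0.16, the 22 of G1/S and DNA replication between -0.31 and 0.35, and the 24 of antigen presentation between -0.20 and 0.22. None of 19 cytokine receptors passed, with IL6R, the interleukin-6 receptor, the highest at 0.69 ± 0.23 (adjusted p = 0.466; 1 of the untreated arrays detected it). None of 15 AP-1 and immediate early genes passed either, with KLF6, a zinc finger factor, the highest at 0.60 ± 0.18 (adjusted p = 0.384). Among 21 interferon-related genes, IFI44L was the lowest at -0.52 ± 0.14 (adjusted p = 0.236; 1 of the T427 arrays detected it). The 13 housekeeping genes lay between -0.15 and 0.17.

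**Figure D4:**
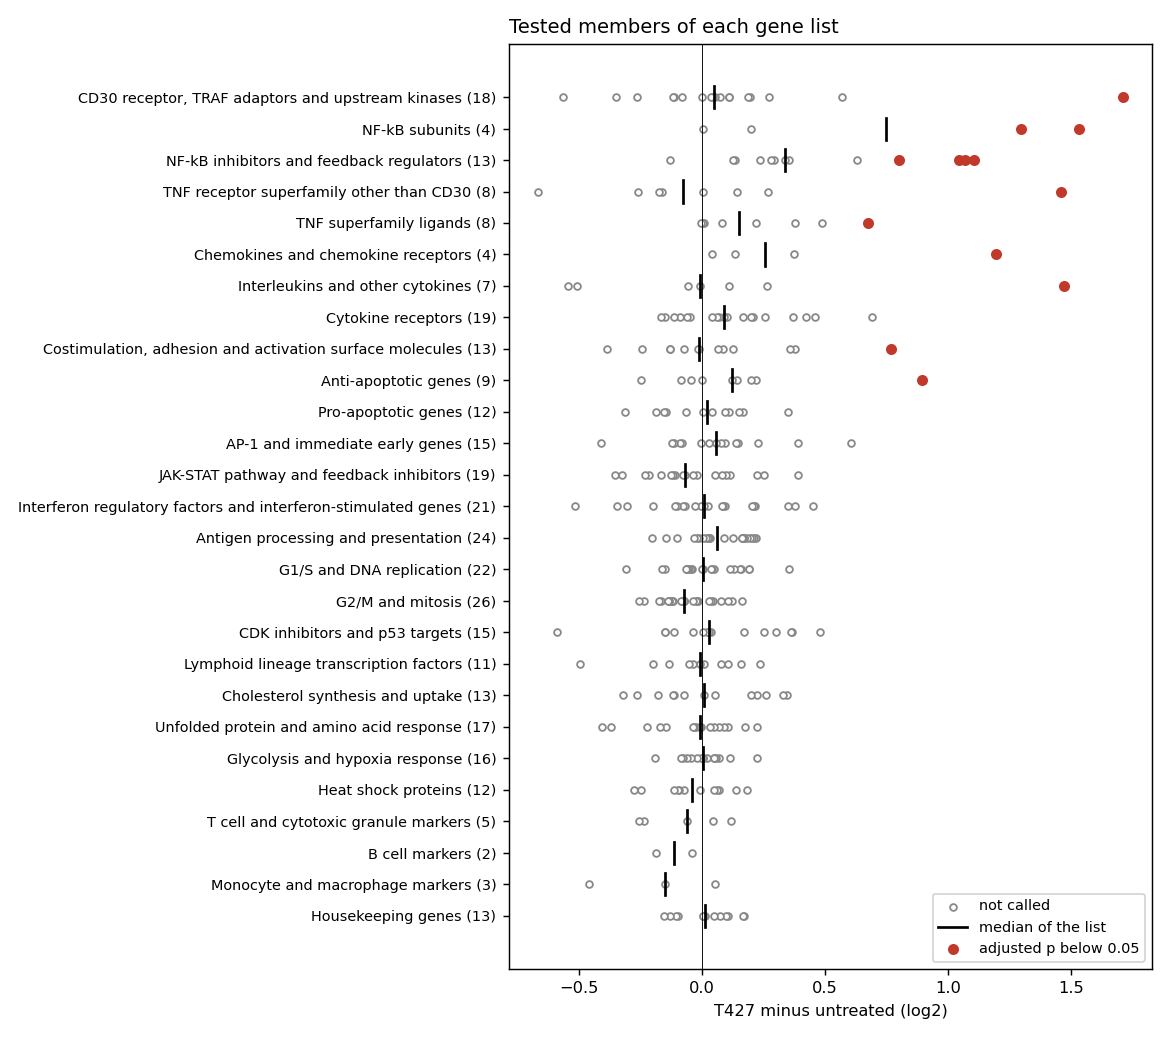
Change with T427 (T427 minus untreated, log2, horizontal axis) of each tested member of 27 gene lists, with the number tested in parentheses; open circles did not pass, red circles passed an adjusted p of 0.05, and a black bar marks the list's median. Red circles appear in 9 lists, 4 of them in the list of NF-kB inhibitors, and the 13 housekeeping genes lie within -0.15 and 0.17.

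Of the 26 risen genes, 23 had a promoter window in the RefSeq table, with 39 windows in all because a gene can have several starts. The NF-kB consensus was found on either strand in 35.9% of these windows. It was found in 11.5% of the 9310 windows of all genes tested and in 9.96% of the 35116 windows in the table. By gene, 11 of the 23 (47.8%) held it in at least 1 window, against 14.9% of all genes tested. SDC4, which had entered the test only through T427, is among the 11. TGANTCA, a loose form of the AP-1 motif with any base in the middle, is palindromic and was searched alike. It was in 7.69% of the risen genes' windows, TGAATCA at CFLAR included, against 4.48% of the windows of all genes tested. These matches are a description of letters in a fixed window, with no test.

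Matched bases at other risen genes are given for comparison with the promoters printed above. NFKBIZ held GGGAATTTCC, the same bases as TNFRSF9, from 223 to 214 bases before 1 of its starts. NFKBIA held GGAAATTCCC and TNFAIP3 held GGAAAGTCCC and GGAAATCCCC, all reading as the motif on the other strand. CFLAR and SDC4 both held GGGGAATTCC, and for both it lay 97 to 88 bases before the start. LTA held GGGGGCTTCC, which overlaps a second match. CD83 held several matches, among them GGGGCGCCCC and GGGGAATCCC. NFE2L3 held GGGGAGCCCC, and C17orf58 held GGAATCTCCC and GGAAGCCCCC, both on the other strand. TMEM214, which fell, held 1 match, GGGAATCTCC.

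T427 was next set against T408, another anti-CD30 antibody of the series. No gene of 7873 tested was called (0.0%), and the smallest adjusted p was 0.998 by limma. At an unadjusted p below 0.05 there were 379 genes (4.81%), where 394 would be expected by chance. For the 26 genes that rose with T427, the difference of T427 from T408 lay between -0.24 and 0.49, with T427 the lower in 12 and the higher in the rest. The intervals of these differences reached from -0.57 to 0.84, so a difference of up to these bounds is not excluded by a p that missed the threshold. TRAF1 differed by -0.11 ± 0.18 and RELB by -0.21 ± 0.12. ADGRE1 had the widest gap, with T427 at 9.80 and 10.00 and T408 at 9.63 and 9.19 (0.49 ± 0.16, unadjusted p = 0.00846). The smallest p-values belonged to TRIM45 and ZBTB45, both detected in 1 of the groups only. TRIM45 was at least 1.23-fold higher with T427, where it was detected, and ZBTB45 at least 1.18-fold lower, since T408 was the group that detected it. RNF138, also among the 5 smallest, was detected on all 12 arrays. It stood at 10.20 and 10.11 with T427 and at 9.28 and 9.58 with T408.

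Against the ligand and T104, T427 was lower in most of the genes that it had raised. CD30L-Fc differed from T427 in 435 of 7789 genes (5.58%), 316 lower with T427 (4.06%) and 119 higher (1.53%). T104 differed in 471 of 7702 genes (6.12%), 329 lower (4.27%) and 142 higher (1.84%). Of the 26 risen genes, 22 were lower with T427 than with CD30L-Fc and 22 lower than with T104, and none was higher in either. The 26 include SDC4 and CBLN3, which had entered the test against untreated cells only through T427. SDC4 was among the lower genes in both comparisons and CBLN3 in neither. The comparisons share the T427 arrays and so are not independent. The median difference over the 26 was -1.31 from CD30L-Fc and -1.32 from T104. Leaving out any 1 array brought the totals to between 218 and 231 genes for CD30L-Fc and between 229 and 259 for T104, with 20 or 21 of the 26 lower in each case; CXCR4 lost its call under each omission and HIVEP1 under some.

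The gaps were wide in genes of the pathway. TRAF1 stood at 11.43 and 11.05 with CD30L-Fc and at 11.35 and 11.49 with T104, against 9.34 and 9.65 with T427. The difference was -1.75 ± 0.18 from CD30L-Fc (adjusted p = 7.01e-05) and -1.93 ± 0.18 from T104 (adjusted p = 2.44e-05). In the same order, RELB differed by -1.60 ± 0.12 and -1.56 ± 0.12, NFKB2 by -0.99 ± 0.13 and -0.96 ± 0.13, and NFKBIA by -1.52 ± 0.13 and -1.56 ± 0.13, and all 6 differences were called. TNFRSF9 stood at 11.43 and 11.78 with CD30L-Fc and at 11.78 and 11.68 with T104, more than 2 log2 units above both T427 arrays. LTA differed by -2.15 ± 0.12 and -2.13 ± 0.12. NFKB1, not called against untreated cells, was lower with T427 than with CD30L-Fc, by -0.55 ± 0.13 (adjusted p = 0.0245), and than with T104, by -0.60 ± 0.13 (adjusted p = 0.0143). Of the NF-kB inhibitors, 9 of 13 were lower with T427 than with CD30L-Fc and 10 of 13 than with T104; of the subunits, 3 of 4 in both. Over all genes tested the shares lower with T427 were 4.06% and 4.27%.

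ADGRE1, CBLN3, NFE2L3 and C17orf58 rose with T427 and were called in neither comparison. NFE2L3 stood at 12.47 and 12.25 with T427, at 12.34 and 12.45 with CD30L-Fc and at 12.57 and 12.41 with T104, so the groups overlapped. Its difference was -0.03 ± 0.13 from CD30L-Fc, with an interval from -0.32 to 0.25, and -0.12 ± 0.13 from T104, with an interval from -0.41 to 0.16. ADGRE1 differed by -0.37 ± 0.16 (adjusted p = 0.236) and -0.29 ± 0.16 (adjusted p = 0.373), CBLN3 by -0.47 ± 0.14 (adjusted p = 0.0787) and -0.32 ± 0.14 (adjusted p = 0.253). C17orf58 differed by -0.28 ± 0.12 (adjusted p = 0.256) and -0.17 ± 0.12 (adjusted p = 0.516). A p that missed the threshold does not show equal levels, and all 4 mean levels were below those of both other groups.

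**Figure D5:**
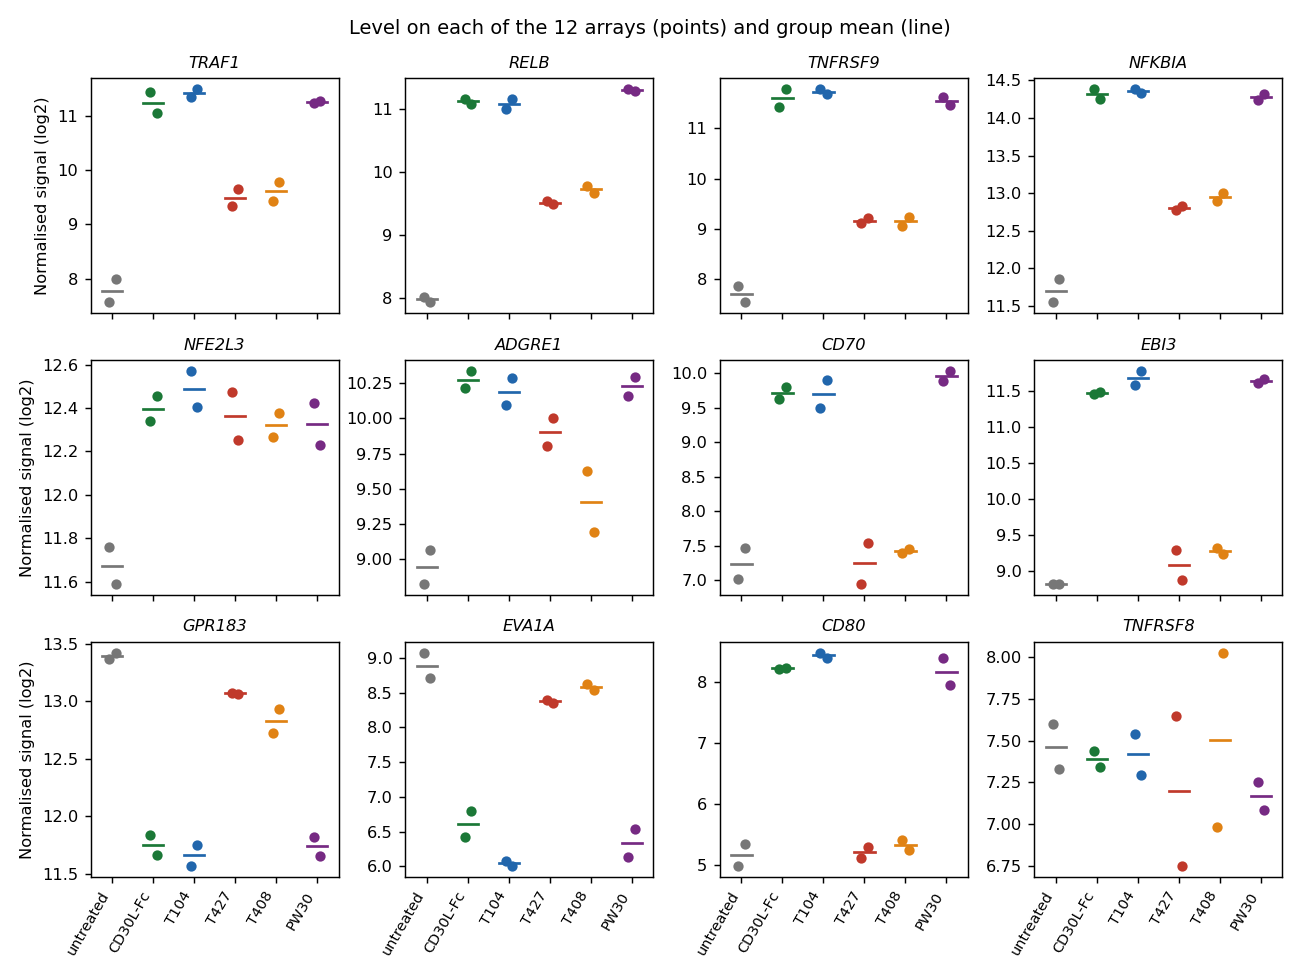
Normalised signal (log2, vertical axis, a scale of its own for each gene and not starting at 0) of 12 genes on all 12 arrays; points are arrays and lines are group means. TRAF1, RELB, TNFRSF9 and NFKBIA with T427 lie between untreated cells and CD30L-Fc, NFE2L3 with T427 overlaps CD30L-Fc, CD70 with T427 (6.95 and 7.54) overlaps untreated cells, and PW30 is plotted without a test.

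The genes furthest apart from CD30L-Fc or T104 were also looked up between T427 and untreated cells. The 10 genes with the largest called differences in each direction were taken from each comparison, which gave 23 genes. Of these, 16 were tested between T427 and untreated cells, where TNFRSF9 was called and the other 15 lay between -0.54 and 0.26. Over all genes tested there, 0.362% were called. A missed threshold does not show an unchanged level, and the 23 were picked on the same T427 arrays. Those higher with T427 than with CD30L-Fc or T104 all had T427 means below the untreated ones. For EVA1A these were 8.38 against 8.89, and for TOX 7.19 against 7.69. Those lower with T427 lay on both sides of untreated cells. CD80, the ligand of CD28 and CTLA4, was detected on no T427 array, at 5.11 and 5.30, and stood at 8.23 and 8.24 with CD30L-Fc. It was at least 2.55-fold lower with T427 than with CD30L-Fc (adjusted p = 7.89e-07) and at least 2.96-fold lower than with T104 (adjusted p = 2.64e-07). SLAMF1, a lymphocyte costimulatory receptor, was at least 3.96-fold and 4.03-fold lower, and CXCL10, a chemokine for activated T cells, at least 1.59-fold and 2.25-fold. CD70 differed by -2.47 ± 0.20 and -2.45 ± 0.20, EBI3 by -2.39 ± 0.14 and -2.60 ± 0.14, and ZBTB32, a transcriptional repressor, by -2.23 ± 0.14 and -2.57 ± 0.14.

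In the other direction, GPR183, the oxysterol receptor that positions B cells, stood at 13.08 and 13.07 with T427. It stood at 11.84 and 11.66 with CD30L-Fc and at 11.57 and 11.75 with T104, and its level with T427 was higher by 1.32 ± 0.13 (adjusted p = 4.22e-05) and 1.41 ± 0.13 (adjusted p = 1.72e-05). Against the untreated arrays, at 13.37 and 13.42, its difference of -0.32 ± 0.13 did not pass (adjusted p = 0.570). EVA1A, a membrane protein linked to autophagy, stood at 8.39 and 8.36 with T427 and was at least 2.69-fold higher than with T104, where neither array detected it. With CD30L-Fc, where 1 of the arrays detected it, it stood at 6.42 and 6.80, a fitted difference of 1.77 ± 0.17 that reads partly against background. SMIM43, a small membrane protein, was higher by 1.35 ± 0.14 and 1.40 ± 0.14. CD93, a C-type lectin-like receptor, was higher than with T104 by 1.12 ± 0.17, and by 1.62 ± 0.17 than with CD30L-Fc, where 1 of the arrays detected it. EVA1A, SMIM43 and CD93 differed from untreated cells by -0.52, -0.48 and -0.44, with adjusted p of 0.456, 0.309 and 0.540. TMEM214, which fell with T427, differed from T104 by -0.55 ± 0.12 (adjusted p = 0.0176), while its difference from CD30L-Fc of -0.24 ± 0.12 did not pass (adjusted p = 0.344).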

How the data were processed

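Signals came from the deposited table of non-normalized values, which holds 1 signal intensity and 1 detection p-value for each of 48780 probes on 12 arrays, per the file headers. The submitters' processing notes name GenomeStudio and the design text BeadStudio, both without a version. The authors' processed intensity values were used, as log2, in 1 alternative; their normalization is not stated.

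Intensities were corrected and normalised here with neqc of limma 3.58.1 (R 4.3.3): normexp, with the negative control signal derived from the detection p-values and an offset of 16, then quantile normalisation and log2. Names came from the platform annotation. Symbols were checked through the Entrez ID for 28043 of 28082 probes with 1 gene, and 0 symbols changed. A further 13 probes had several genes and 20685 had none and were not named. Each gene was represented by its brightest detected probe (mean of 12 arrays); 1731 genes had more than 1. lmFit ran on all 12 arrays with 6 group means, followed by eBayes and Benjamini-Hochberg adjustment within each comparison. Each change is given as a log2 difference ± SE with n = 2 a group. The number of arrays limits the precision. A gene not detected in 1 group got a lower bound from the dimmest detected probes there. Each such bound rests on group means and leaves out sampling error. The fit was tested on simulated data.

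Genes were named by rule: the 20 largest rises and the 10 largest falls, up to 4 called genes of a list, the 5 uncalled genes of smallest p in each direction, TNFRSF8, and the tested members of the 5 lists on CD30, NF-kB and the TNF family. Against T408, CD30L-Fc and T104 the rule took the 10 largest called differences in each direction, or the 5 smallest p-values, and the called genes. Members of further lists were named for their values. The members and lists were chosen with earlier results of these data known. Alternatives covered background, scaling, filters, probes, the variance prior, the arrays fitted, the replicate block and single-array omissions. PW30 was not compared with T427.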

Additional observations from a re-analysis of the deposited data

Results flagged for a closer look

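Probes without a gene name in the annotation were outside the comparison, and 3 of them were higher with T427 than in untreated cells. They were among 1448 unnamed probes detected on both arrays of either group, and were tested together with all 11207 detected probes. The first, ILMN_1776181, was higher by 1.38 on the log2 scale (limma adjusted p = 0.000705), at 10.57 and 10.55 untreated and 11.83 and 12.05 with T427. The second, ILMN_1681644, was detected on neither untreated array, at 6.48 and 5.82, and on both T427 arrays, at 7.63 and 7.87. It was at least 1.75-fold higher with T427, through which alone it entered; the fitted difference of 1.60 (adjusted p = 0.00306) reads against background. The third, ILMN_2405684, was higher by 1.03 (adjusted p = 0.00491), at 10.90 and 10.78 untreated and 11.87 and 11.87 with T427. None of the unnamed probes was called lower. Groups of 2 arrays were too small to test for a sample far from the others.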

How the results depend on the processing

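Of 28 genes called between T427 and untreated cells, 10 remained when dim probes were not filtered (10 called of 18846 genes tested), 14 at a detection p of 0.05 (15 called) and 6 in a fit on the 4 arrays alone (6 called). Leaving out 1 of these arrays gave from 8 to 28 called genes. Other settings gave 21 (median scaling) to 35 (a trend in the variance prior); the authors' deposited values gave 28, of which 24 were shared. TRAF1, RELB, IL4I1, TNFRSF9 and NFKB2 passed in all 15 alternatives, and CEL passed in none of 14. Of the called genes, 7 had other detected probes, 9 in all. All 9 changed in the same direction and 2 passed over all probes. Median scaling moved the median change of all genes to -0.03. For T427 against T408 no setting called a gene. CD30L-Fc gave 435 called genes, 225 without the filter and 218 to 231 without 1 array; T104 gave 471, 259 without the filter and 229 to 259 without 1 array. Without the filter 18846 genes were tested in each comparison; the cause of the other shifts was not tested. The replicate numbers are shared across groups; deviations of same-numbered untreated and T427 arrays correlated with r = 0.11, over 2 numbers only, so the arrays share a number and no pairing was taken. With the replicate number as a block, 21 genes were called against untreated cells (21 shared) and 0 against T408, while 388 of the 435 genes stayed called against CD30L-Fc and 424 of the 471 against T104. Genes near background, such as SDC4, CBLN3 and CEL, have only bounds or partial detection in 1 group.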
